A study of Mus musculus with 30 samples.

Results

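The perineuronal net is a lattice of extracellular matrix that condenses around the soma and proximal dendrites of certain neurons, above all fast-spiking parvalbumin interneurons, late in postnatal development. Here its core genes were followed in whole mouse brain from the juvenile to the adult stage, in WT and *Arid1b*+/- (HT) mice. The set comprised 10 genes, of 19737 in the deposited table, taken as a named list: the lecticans *Acan* (aggrecan), *Bcan* (brevican), *Ncan* (neurocan) and *Vcan* (versican), the hyaluronan and proteoglycan link proteins *Hapln1*, *Hapln3* and *Hapln4*, the tenascins *Tnr* and *Tnc*, and *Ptprz1*, a receptor-type phosphatase whose secreted splice form is the chondroitin sulfate proteoglycan phosphacan. All 10 were found in the table and passed the filter on low values in every comparison. The rule names genes by family, and the list was drawn up with earlier results of these data known.

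In the net, long hyaluronan chains made at the cell surface are bound by the N-terminal domain of the lecticans, link proteins lock that bond, and trimers of tenascin-R tie the other ends of the lecticans together. The juvenile brain holds a looser matrix that is known for neurocan, the larger versican forms and tenascin-C, and the adult brain a denser one known for brevican, aggrecan and tenascin-R. Closure of the nets around parvalbumin cells accompanies the end of cortical critical periods.

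The libraries came from 30 male C57BL/6N mice, 1 whole brain each, in 6 groups of 5. At postnatal day 10 (P10) the groups were untreated WT and HT. At P120 they were WT-Veh, HT-Veh, WT-Flx and HT-Flx, whose dams drank saccharin water without (Veh) or with (Flx) the serotonin reuptake inhibitor fluoxetine, at 0.1 mg/ml, from P3 to P21 (saccharin at 0.2% in both), and plain water followed after weaning. The HT mice carried 1 copy of *Arid1b*, a subunit of the BAF chromatin remodeler, disrupted in the germline by a CRISPR/Cas9 deletion of exon 5 (C57BL/6N-Arid1b em1Tcp, 1 line). The P10 mice had no saccharin, so age cannot be told apart from the vehicle, and whether both ages were sequenced together is not given in the sources used here.

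In the P10 libraries *Arid1b* separated the genotypes, at 3164 to 3309 in WT and 2162 to 2334 in HT, in the authors' normalized values. At P120 the HT-Veh library numbered 2 stood at 3361 and the WT-Veh library numbered 2 at 2320, while the other 4 HT-Veh libraries lay at 1973 to 2480 and the other 4 WT-Veh libraries at 3036 to 3229. These 2 libraries go against their labels, and the comparisons, shares, ratios, sums and lists that use them are also given without them. A second feature touched the P120 values: libraries differed in how short, GC-rich genes stood against long, GC-poor ones. This tilt, on the log2 scale and relative to the mean of the P120 libraries, was -0.51 to -0.35 in WT-Flx, 0.27 to 1.04 in HT-Flx, -0.51 to 0.53 in HT-Veh and -0.36 to 0.20 in WT-Veh. The P10 libraries, relative to their own mean, spanned -0.22 to 0.061. Read depth is unknown, since the values are normalized and not whole reads, and summed normalized values ran from 31578614 to 41801037 a library. The sums were 37083545 to 41522113 in HT-Flx and 32484635 to 33588499 in WT-Flx, so these 2 groups did not overlap.

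Each lectican gene lies beside a link protein gene in the mouse genome, and these neighbours are shown because the pairs behaved differently with age. On GRCm38, *Acan* (chr7:79053483-79115099, plus strand) ends 2 bases from the end of *Hapln3* (chr7:79115102-79131018, minus strand). *Ncan* (chr8:70093085-70120873, minus strand) and *Hapln4* (chr8:70083457-70090862, plus strand) point toward each other across 2.22 kb. *Vcan* (chr13:89655312-89742509, minus strand) and *Hapln1* (chr13:89539796-89611652, plus strand) do so across 43.7 kb. The fourth pair is *Bcan* (chr3:87987531-88000230, minus strand) with *Hapln2* (chr3:88021750-88027583, minus strand), a link protein of oligodendrocytes at nodes of Ranvier that was not on the list. No other coding gene lies between the genes of any pair. The remaining members are *Tnr* (chr1:159523769-159931729, plus strand), *Tnc* (chr4:63959785-64047015, minus strand) and *Ptprz1* (chr6:22875502-23052916, plus strand). The kit does not mark strand, so reads from *Vcan* and *Tnr* cannot be told apart from those of the antisense genes *Gm4117* and *Gm38039* where they overlap. The same holds for *Tnc* and the transcript *8030451A03Rik* on the opposite strand. It also holds for *Hapln1* and *Vcan* with the opposite-strand pseudogenes *Gm8546* and *Gm16318*.

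The 250 bases upstream of the RefSeq start (GRCm38.p6) are shown for 3 members, *Ncan* and *Tnc*, which were lower at P120, and *Acan*, which was not, with each CG dinucleotide in capitals. The *Acan* window is chr7:79052976-79053225 on the plus strand, the *Ncan* window chr8:70120845-70121094 on the minus strand and the *Tnc* window chr4:64047016-64047265 on the minus strand.

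Acan: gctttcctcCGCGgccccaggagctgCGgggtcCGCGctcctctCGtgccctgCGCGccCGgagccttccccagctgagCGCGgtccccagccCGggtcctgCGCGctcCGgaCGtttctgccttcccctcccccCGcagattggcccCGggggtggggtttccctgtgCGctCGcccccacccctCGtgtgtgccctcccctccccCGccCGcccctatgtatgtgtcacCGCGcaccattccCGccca

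Ncan: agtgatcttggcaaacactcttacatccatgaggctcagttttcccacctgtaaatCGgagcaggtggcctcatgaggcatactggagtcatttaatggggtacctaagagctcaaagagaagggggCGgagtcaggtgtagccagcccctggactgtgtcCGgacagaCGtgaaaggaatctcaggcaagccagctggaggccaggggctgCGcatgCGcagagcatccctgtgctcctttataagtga

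Tnc: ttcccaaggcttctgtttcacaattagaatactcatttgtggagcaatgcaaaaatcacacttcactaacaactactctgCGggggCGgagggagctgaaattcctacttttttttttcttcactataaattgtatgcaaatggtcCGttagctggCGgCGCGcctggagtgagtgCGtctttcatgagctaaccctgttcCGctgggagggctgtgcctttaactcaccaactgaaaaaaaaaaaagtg

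The *Acan* window held 26 CG dinucleotides against 6 in *Ncan* and 8 in this *Tnc* window, and the median over all 32851 RefSeq windows of this length was 6. Of the windows not shown, *Ptprz1* held 22, *Bcan* 16, *Vcan* 10 and *Hapln3* 8. Members that fell with age thus ranged from 2 to 22. The letters TATAAA were found on either strand in the windows of *Ncan*, *Tnc* and *Hapln3*, as in 12.4% of all windows. The letters GGGCGG were found in those of *Acan*, *Bcan*, *Ncan*, *Vcan*, *Tnc* and *Ptprz1*, as in 32.7% of all. Of the 10 members 9 matched an entry, and *Hapln4* did not. In these windows the members that fell with age thus shared neither motif: the windows of *Hapln1* and *Tnr*, with 2 CG each, held neither. The windows follow RefSeq starts, which can differ from the gene coordinates given above. The *Hapln1* window, chr13:89540386-89540635 on the plus strand, lies within the *Hapln1* gene as given above. The *Ncan* window overlaps the *Ncan* gene as given above, and its TATAAA letters lie in that overlap.

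Between P10 and P120 most net transcripts fell in the WT brain and *Hapln4* rose. In all, 7 members were lower in WT-Veh adults than in P10 WT (*Tnc*, *Hapln1*, *Vcan*, *Ncan*, *Hapln3*, *Ptprz1* and *Tnr*, with log2 fold changes of -2.38 to -1.05), *Hapln4* was 5.82-fold higher, and *Acan* and *Bcan* did not pass the test. That is 8 of 10 members past an adjusted p of 0.05 in limma, where 58.3% of the 17927 genes tested passed, 28.9% higher and 29.4% lower. The median log2 fold change of the members was -1.38, and that of all genes tested -0.013. Beside these counts stands the makeup of a whole brain: in bulk tissue, fewer cells of a type and less RNA per cell cannot be told apart.

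**Figure D1:**
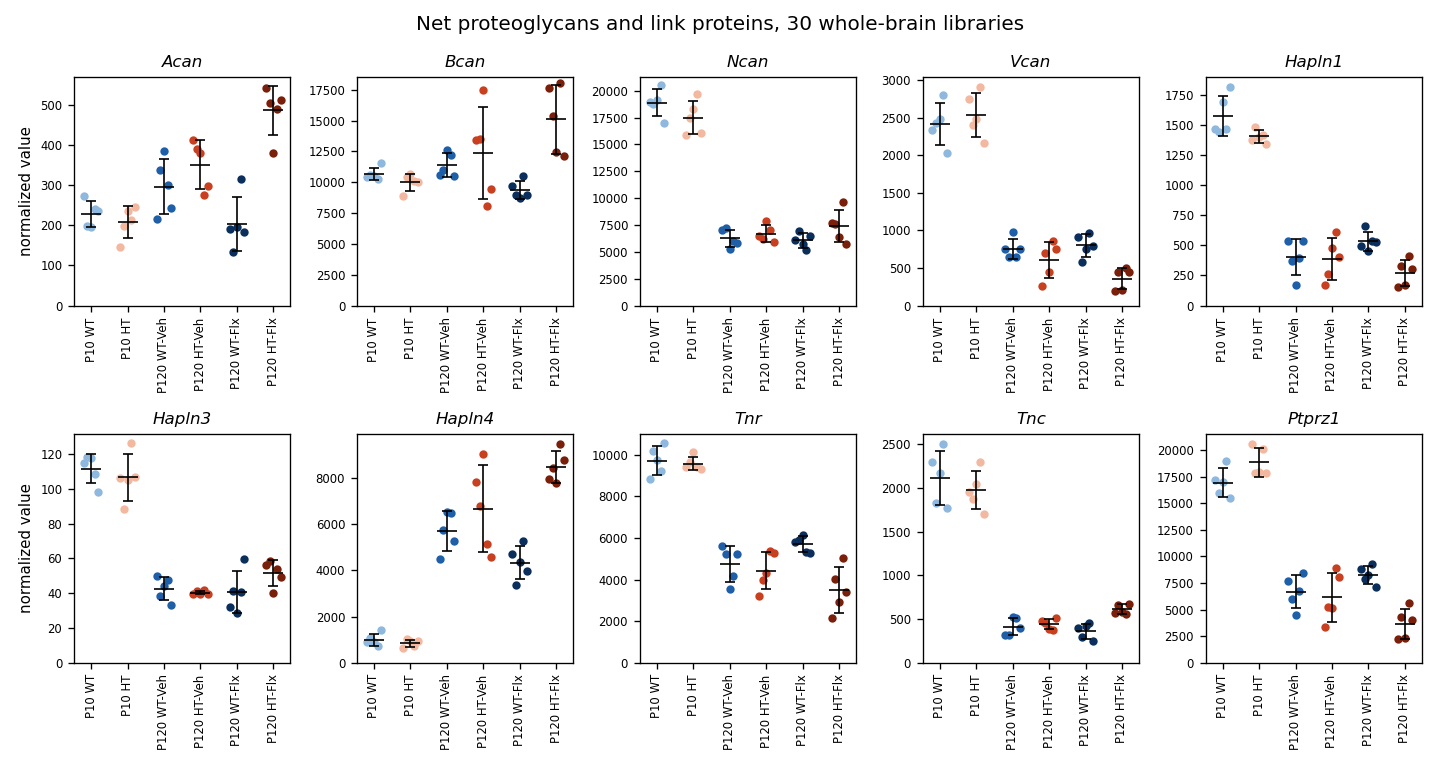
Normalized value of each of the 10 genes (vertical axis, linear from 0) in every library (points, 5 a group), with the group mean and SD (bar and whiskers). The 7 genes that fell sit lower in all P120 libraries than in all P10 libraries, *Hapln4* sits higher, and *Acan* and *Bcan* overlap between P10 WT and WT-Veh.

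*Hapln4*, the link protein that clusters brevican at inhibitory synapses of the brainstem and cerebellum, was at 875, 1072, 900, 733 and 1403 in the P10 WT libraries. In the WT-Veh libraries it was at 4504, 5760, 6557, 6487 and 5276. The lowest adult value was over 3 times the highest juvenile one. The log2 fold change was 2.54 (SE 0.155, adjusted p = 3.5e-08 in limma), and the exact permutation test gave p = 0.00794, the smallest that 5 against 5 libraries allow. The 8 members that passed had groups that did not overlap, as did 45.6% of all genes.

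*Hapln1*, the link protein that the net of cortical neurons depends on, moved the opposite way. It was at 1465, 1443, 1694, 1465 and 1813 in P10 WT. In WT-Veh it was at 539, 367, 172, 396 and 539. Every adult library was below every juvenile one, with a log2 fold change of -2.07 (SE 0.249, adjusted p = 1.33e-05 in limma). *Hapln3*, a link protein of broad tissue distribution and the partner of *Acan* on chromosome 7, was scarce at both ages. It lay at 98.4 to 118 in P10 WT and 33.2 to 49.7 in WT-Veh, a log2 fold change of -1.38 (SE 0.144, adjusted p = 3.69e-06 in limma). *Hapln2*, which is not a member, rose 10.1-fold, from 174 ± 66.5 to 1685 ± 280 (SD, n = 5 each).

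The lecticans split into a pair that fell and a pair that did not pass the test. *Ncan*, the chondroitin sulfate proteoglycan of growing axons and juvenile matrix, was at 18977, 18774, 19095, 20487 and 16996 in P10 WT. In WT-Veh it was at 7001, 7191, 5286, 6029 and 5784. The groups did not overlap, and the log2 fold change was -1.60 (SE 0.0875, adjusted p = 1.45e-08 in limma). *Vcan*, whose large forms are made by progenitors and whose V2 form is made by oligodendrocyte lineage cells, was at 2341, 2429, 2479, 2800 and 2028 in P10 WT. It was at 755, 651, 980, 652 and 747 in WT-Veh. Again no adult library reached a juvenile one, with a log2 fold change of -1.68 (SE 0.115, adjusted p = 9.44e-08 in limma).

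*Bcan*, the most abundant lectican of adult brain, was at 10435, 10575, 10471, 10302 and 11529 in P10 WT. In WT-Veh it was at 10620, 10989, 12645, 12219 and 10486. The groups overlapped and the log2 fold change was 0.092, with a 95% interval of -0.053 to 0.24 (adjusted p = 0.255 in limma). *Acan*, the aggrecan core protein whose loss abolishes nets, was at 272, 198, 197, 241 and 236 in P10 WT. It was at 215, 337, 385, 300 and 243 in WT-Veh. The adult libraries numbered 2, 3 and 4 lay above all juvenile ones and the other 2 did not, the log2 fold change was 0.35 with an interval of 0.0091 to 0.69, and the adjusted p was 0.0727 in limma. Leaving out the WT-Veh library numbered 1 or 5 put *Acan* past the threshold (adjusted p = 0.0163 and 0.0490 in limma), where 59.8% and 57.8% of genes passed.

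The tenascins both fell, *Tnc* by more. *Tnc*, made by radial glia and immature astrocytes, was at 2291, 1827, 2170, 2501 and 1770 in P10 WT. In WT-Veh it was at 311, 315, 517, 505 and 402. The log2 fold change was -2.38 (SE 0.155, adjusted p = 5.92e-08 in limma), the largest fall among the 10 members. *Tnr*, the tenascin of mature nets, made by oligodendrocyte lineage cells and some neurons, was at 8858, 10206, 9768, 9229 and 10577 in P10 WT. It was at 5602, 5221, 3548, 4174 and 5237 in WT-Veh. No values overlapped, and the log2 fold change was -1.05 (SE 0.114, adjusted p = 5.21e-06 in limma). *Ptprz1*, made by radial glia, oligodendrocyte precursors and astrocytes, fell from 15521 to 19019 in P10 WT to 4526 to 8460 in WT-Veh, a log2 fold change of -1.37 (SE 0.137, adjusted p = 2.68e-06 in limma).

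**Figure D2:**
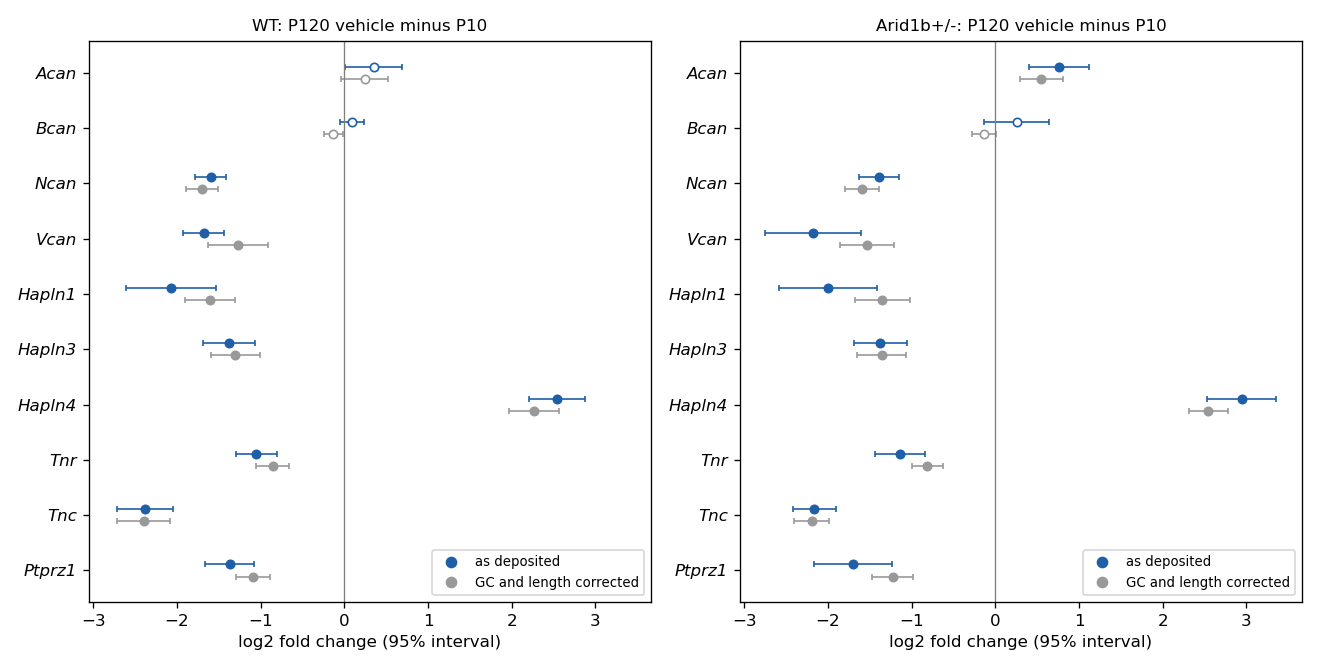
Log2 fold change from P10 to P120 vehicle (horizontal axis, 95% interval) of each gene in WT (left) and Arid1b+/- mice (right), on the deposited values (blue) and corrected for transcript GC and length (grey). Filled points passed an adjusted p of 0.05: *Hapln4* stands at 2.54 in WT and 2.95 in Arid1b+/-, and 7 genes lie between -2.38 and -1.05 in WT.

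A correction of every library for transcript GC and length left the same 8 members past the threshold in WT, with *Hapln4* at 2.27 and the falls between -2.40 and -0.85 on the log2 scale, where 59.7% of genes passed. *Bcan* then had a log2 fold change of -0.13 (adjusted p = 0.0520 in limma) in place of 0.092. With WT-Flx adults in place of WT-Veh adults, which share the P10 libraries, *Bcan* was lower at P120 (log2 fold change -0.19, adjusted p = 0.00999 in limma), *Acan* stood at -0.21 (adjusted p = 0.347), and the other 8 members passed in the same directions, *Hapln4* at 2.14, where 61.4% of genes passed. So neither direction of *Bcan* nor of *Acan* in WT held over these settings. Without the WT-Veh library numbered 2 the 8 calls stood, with *Hapln4* at 2.54, where 56.1% of genes passed.

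In HT mice the same comparison, of HT-Veh adults with P10 HT, gave 9 members past the threshold, where 51.1% of 17989 genes passed, 25.8% higher and 25.3% lower. *Acan* was at 145, 199, 236, 214 and 245 in P10 HT. In HT-Veh it was at 413, 391, 379, 276 and 299. All 5 adult values were above all 5 juvenile ones, as groups did not overlap for 40.2% of genes, and the log2 fold change was 0.76 (SE 0.168, adjusted p = 0.00228 in limma). *Hapln4* rose from 649 to 1021 in P10 HT to 4568 to 9078 in HT-Veh, a log2 fold change of 2.95 (SE 0.191). The 7 falls had log2 fold changes of -2.18 for *Vcan*, -2.16 for *Tnc*, -1.70 for *Ptprz1*, -1.39 for *Ncan*, -1.37 for *Hapln3* and -1.14 for *Tnr*, and *Hapln1* fell from a mean of 1404 to 386. *Bcan* spread from 8056 to 17483 in HT-Veh around a P10 range of 8857 to 10631, with a log2 fold change of 0.26 (adjusted p = 0.245 in limma); without the HT-Veh library numbered 4 it passed (0.40, adjusted p = 0.0380 in limma), as did 56.6% of genes. Without the HT-Veh library numbered 2 the same 9 passed (45.6% of genes), with *Acan* at 0.72, and after the GC and length correction the same 9 passed (56.0% of genes), with *Acan* at 0.55 and *Bcan* at -0.14. With HT-Flx adults in place of HT-Veh adults all 10 passed, *Acan* at 1.24 and *Bcan* at 0.58 among the 3 that were higher, where 73.1% of genes passed, 36.0% higher.

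Whether the age change differed by genotype was tested with an interaction term over the 20 untreated and vehicle libraries. None of the 10 members passed, and 0.0% of 17978 genes did (612 genes had an unadjusted p under 0.05). The difference, HT minus WT, was 0.41 for *Acan* with a 95% interval of -0.083 to 0.91, 0.41 for *Hapln4* with an interval of -0.14 to 0.95, and -0.50 for *Vcan* with an interval of -1.14 to 0.15, all on the log2 scale. Without the vehicle libraries numbered 2 none of 17969 genes passed (0.0%, with 613 at an unadjusted p under 0.05 in limma), and the values were 0.42 (-0.12 to 0.96), 0.39 (-0.22 to 1.01) and -0.63 (-1.33 to 0.068). A genotype difference within these intervals was not resolved, so *Acan* passing in HT and not in WT is not shown to differ between the genotypes.

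Dividing by the length of the longest coding transcript put the genes on a common scale, with the limit that shorter splice forms, as of *Vcan*, are understated. At P10 WT the order was *Bcan* (3396 ± 157 per kb, SD, n = 5), *Ncan* (2620 ± 173), *Ptprz1* (2101 ± 167) and *Tnr* (797 ± 57.4), none of which overlapped the next. *Tnc*, *Hapln1*, *Hapln4* and *Vcan* followed at means of 297 to 194 per kb, each overlapping the next, and *Hapln3* and *Acan* came last at 33.2 and 31.1 per kb and overlapped. In WT-Veh adults *Bcan* remained at the top (3628 ± 312 per kb) and *Hapln4* came next (1566 ± 236), apart from its neighbours. *Ncan* (869 ± 113) and *Ptprz1* (561 to 1048) overlapped, *Tnr* was at 390 ± 70.5, and *Hapln1*, *Vcan*, *Tnc* and *Acan* formed an overlapping run from 70.4 down to 40.2 per kb above *Hapln3* at 12.7. With the WT-Veh library numbered 2 left out, the means of the overlapping *Ncan* (837 per kb) and *Ptprz1* (849 per kb) changed places, and the rest of the order was as with all 5.

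As shares of the per-kilobase sum, *Bcan* made up 54.4% ± 2.78 of lectican signal at P10 WT and 78.8% ± 2.76 in WT-Veh (SD, n = 5). No share was corrected for the GC and length tilt, and the transcripts differ in GC, at 60.7% for *Bcan* and 55.1% for *Ncan*. The share of *Ncan* was 42.0% ± 2.46 and 19.0% ± 2.93. *Acan* held 0.498% ± 0.0694 at P10 WT and 0.870% ± 0.165 in WT-Veh, and *Vcan* 3.11% ± 0.328 and 1.32% ± 0.214. The lectican total itself went from 6241 ± 81.6 to 4598 ± 270 per kb, so the share of *Bcan* was larger while its own value did not pass the test. Among the 3 link proteins *Hapln4* held 46.4% ± 4.99 at P10 WT and 94.8% ± 2.23 in WT-Veh, and *Hapln1* went from 47.7% ± 4.23 to 4.47% ± 2.12. With *Hapln2* counted, *Hapln4* held 39.7% and 59.4% and *Hapln2* 14.5% and 37.3%. The adult shares without the WT-Veh library numbered 2 were 79.5% for *Bcan*, 18.3% for *Ncan*, 0.838% for *Acan* and 1.37% for *Vcan* among the lecticans, and 94.6% for *Hapln4* and 4.61% for *Hapln1* among the 3 link proteins.

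**Figure D3:**
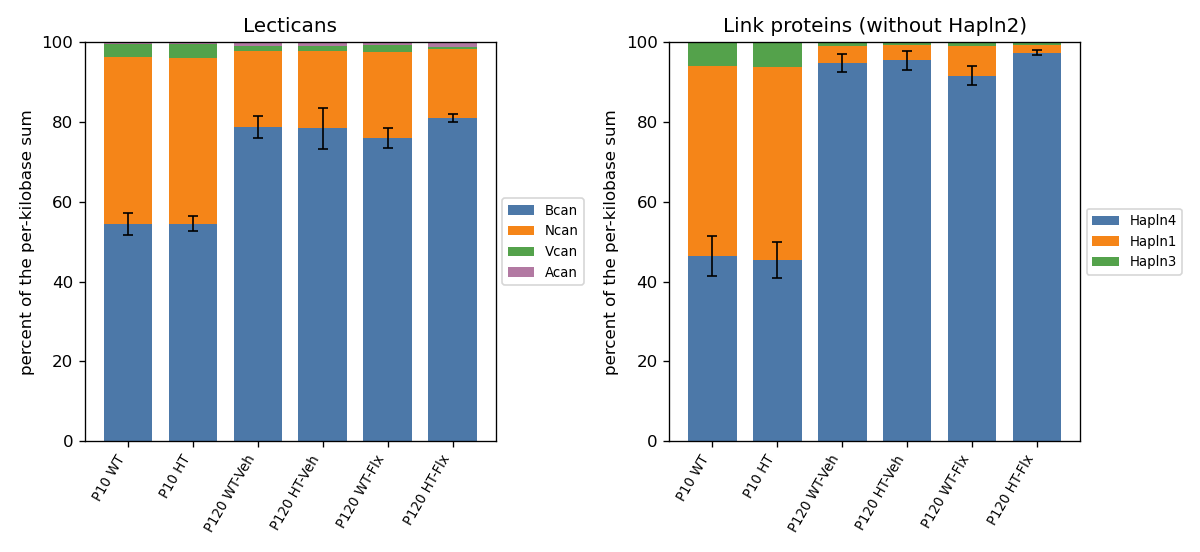
Mean share of each lectican (left) and of each link protein on the list (right) in the per-kilobase sum of its family, in percent (stacked bars from 0, 5 libraries a group); whiskers are the SD of the bottom gene. *Bcan* goes from 54.4% at P10 WT to 78.8% in WT-Veh and *Hapln4* from 46.4% to 94.8%. The shares are not corrected for transcript GC and length.

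Ratios within a library do not depend on its scaling, but they are not free of the GC and length tilt. The *Hapln4* transcript, for example, has 57.0% GC and that of *Hapln1* 39.8%. The ratios were not corrected for this. The ratio of *Bcan* to *Ncan* values had a median of 0.550 (0.503 to 0.678) at P10 WT and 1.81 (1.52 to 2.39) in WT-Veh. *Acan* to *Vcan* went from 0.0862 (0.0794 to 0.116) to 0.393 (0.285 to 0.518), and *Tnr* to *Tnc* from 4.50 (3.69 to 5.98) to a range of 6.86 to 18.0. *Hapln4* to *Hapln1* went from a highest value of 0.774 to 15.7 (8.35 to 38.2). In each of the 4 ratios all WT-Veh libraries were above all P10 WT libraries. The same held for HT-Veh against P10 HT, where the medians in HT-Veh were 2.07, 0.553, 10.4 and 19.0. Without the vehicle libraries numbered 2 the medians were 1.92, 0.359, 10.7 and 13.1 in WT-Veh and 1.84, 0.621, 10.8 and 15.1 in HT-Veh. Among fluoxetine-treated adults, *Tnr* to *Tnc* in HT-Flx was 5.05 (3.78 to 9.04) and overlapped P10 HT at 4.95 (4.10 to 5.46). The other ratios in HT-Flx, and all 4 in WT-Flx, were above those of P10 mice of the same genotype in every library.

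Markers of cell types moved with age too. All markers of the 10 lists were detected in every library. In WT the summed value of the 6 genes listed as parvalbumin interneuron markers was 22634 to 28694 at P10 and 35928 to 54220 in WT-Veh, and 5 of the 6 passed as higher. The list held *Pvalb*, *Kcnc1*, *Kcnc2*, *Gad1*, *Gad2* and *Syt2*. The authors used *Gad1* and *Gad2* as markers of GABAergic neurons, so this sum is not specific to parvalbumin cells. The sum of the 7 astrocyte markers was 101702 to 125198 and 125889 to 157051, but only 2 of them passed as higher, 1 was lower and 4 did not pass, with a median log2 fold change of 0.029 and a lowest of -1.46. The 6 oligodendrocyte precursor markers went from 23666 to 27110 down to 12062 to 15832, and the 4 markers of proliferating cells from 2222 to 3407 down to 74.1 to 145. Choroid plexus (5 markers) went from 11441 to 15704 up to 22823 to 34069, and endothelial and pericyte markers (5) from 10833 to 11614 down to 6885 to 8076. Neuron (145397 to 156983 and 142311 to 156677), oligodendrocyte (130014 to 252136 and 181450 to 269872), microglia (4217 to 5800 and 4999 to 7163) and erythroid sums (9778 to 12205 and 4830 to 11232) overlapped. Without the WT-Veh library numbered 2 the same lists were apart and the same overlapped, with astrocyte sums from 143033 and choroid plexus sums from 24645. The part of these shifts in the members' changes was not tested.

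Genes that build, sulfate, cut and bind the net changed in both directions. Of 17 other genes of net assembly and hyaluronan, 4 were higher and 8 lower in WT-Veh, where 58.3% of all genes passed, with a median log2 fold change of -0.35. *Nptx1*, a neuronal pentraxin of excitatory synapses, rose by 1.77 on the log2 scale, from a mean of 4773 to 16308. *Has3*, a hyaluronan synthase, fell by 0.83, *Sema3a*, a chemorepulsive semaphorin held in nets, by 1.02, and *Hspg2* (perlecan) by 0.73. For chondroitin sulfate synthesis, 6 of 21 genes in the table were higher and 8 lower (median -0.098). The linkage enzymes *B3gat3* (0.93) and *Xylt2* (0.44) and the polymerizing factor *Chpf* (0.60) rose, while the 6-O-sulfotransferases *Chst3* (-1.50) and *Chst7* (-0.77) and the epimerase *Dsel* (-0.90) fell.

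Of 21 proteases and inhibitors in the table, 4 were higher and 12 lower (median -0.44), where 28.9% of all genes were higher and 29.4% lower. *Adamts5* (-1.27) and *Adamts9* (-1.37), which cleave lecticans, and *Cemip* (-1.47), a hyaluronan-degrading factor, fell. *Ctss* (1.21), the cathepsin of microglia, and *Timp3* (0.28), an inhibitor of ADAMTS proteases, rose. Of 20 receptors and binding partners, 3 were higher and 12 lower (median -0.48). The hyaluronan receptors *Cd44* (-1.22) and *Hmmr* (-3.39) and the pleiotrophin gene *Ptn* (-1.42), a ligand of *Ptprz1*, fell. The Nogo receptors *Rtn4r* (0.57) and *Rtn4rl1* (0.82), which bind chondroitin sulfate, rose. Without the WT-Veh library numbered 2 the 4 lists gave 4 higher and 8 lower, 4 and 8, 5 and 10, and 3 and 13 (56.1% of all genes), and each gene named here still passed. In HT the same lists gave 3 higher and 6 lower, 4 and 7, 5 and 9, and 3 and 11, with *Hmmr* at -3.37 and *Nptx1* at 1.95, where 25.8% of all genes were higher and 25.3% lower. The first 2 of these lists were close to the 51.1% of all genes that passed in either direction. Without the HT-Veh library numbered 2 the counts were 3 and 6, 4 and 5, 3 and 9, and 3 and 11 (45.6% of all genes).

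At P10 no net gene passed between the genotypes. None of the 10 members did between HT and WT in limma, where 0.0224% of 17896 genes passed (2249 had an unadjusted p under 0.05). The largest values with an unadjusted p under 0.05 were *Hapln1* at -0.16 (95% interval -0.30 to -0.020, adjusted p = 0.360 in limma) and *Ptprz1* at 0.16 (0.027 to 0.29, adjusted p = 0.346), on the log2 scale. *Hapln1* was at 1343 to 1485 in HT and 1443 to 1813 in WT, and *Ptprz1* at 17855 to 20598 and 15521 to 19019, so both overlapped. *Hapln4* had the widest interval, -0.56 to 0.13. No gene of the 4 pathway lists passed either.

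At P120 with vehicle, the libraries numbered 1, 3, 4 and 5 of HT-Veh and WT-Veh were compared, without those numbered 2. No member passed, nor did any of 17784 genes in limma (0.0%, with 229 genes at an unadjusted p under 0.05). The members' log2 fold changes ran from -0.56 for *Vcan* (95% interval -1.27 to 0.16) to 0.27 for *Acan* (-0.20 to 0.75). With all 5 and 5 libraries the same 2 genes marked the ends, at -0.42 and 0.26, and none passed. *Vcan* was spread widely among HT-Veh mice, at 264, 706, 449, 859 and 751, and *Ptprz1* likewise at 3388, 5211, 5133, 8913 and 8087. The HT-Veh libraries numbered 1 and 3, low in both genes, had tilts of 0.53 and 0.40, and those numbered 4 and 5, high in both, had tilts of -0.51 and -0.40.

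After early fluoxetine most members differed between the genotypes. Between HT-Flx and WT-Flx, *Acan*, *Hapln4*, *Tnc* and *Bcan* were higher in HT, and *Ptprz1*, *Vcan*, *Hapln1* and *Tnr* lower, which is 8 of 10 members where 63.7% of 17799 genes passed (33.1% higher and 30.5% lower). This share of members is not far from that of all genes. *Ncan* (0.27) and *Hapln3* (0.37) did not pass (adjusted p = 0.0953 and 0.136 in limma). *Ncan* passed without the HT-Flx library numbered 5 (0.36, adjusted p = 0.0236 in limma, where 63.6% of genes passed) and *Hapln3* without the WT-Flx library numbered 5 (0.52, adjusted p = 0.0348 in limma, 60.8% of genes).

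*Acan* was at 191, 134, 196, 316 and 182 in WT-Flx. In HT-Flx it was at 543, 506, 380, 490 and 512. All HT-Flx libraries were above all WT-Flx ones, and the log2 fold change was 1.29 (SE 0.190, adjusted p = 0.000110 in limma). *Hapln4* was at 4728, 3359, 4369, 5266 and 3966 in WT-Flx. It was at 7962, 8429, 7803, 9476 and 8803 in HT-Flx. The groups were apart, with a log2 fold change of 0.98 (SE 0.114, adjusted p = 3.73e-05 in limma). *Tnc* was at 398, 288, 414, 448 and 242 in WT-Flx, and at 564, 663, 583, 556 and 676 in HT-Flx. These did not overlap either, with a log2 fold change of 0.80 (SE 0.162, adjusted p = 0.000947 in limma).

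*Ptprz1* was at 8856, 7922, 8259, 9308 and 7082 in WT-Flx. In HT-Flx it was at 2175, 4254, 2336, 5587 and 3986. Each HT-Flx library was below each WT-Flx one, with a log2 fold change of -1.26 (SE 0.225, adjusted p = 0.000386 in limma). On the log2 scale *Vcan* was lower in HT-Flx than in WT-Flx by 1.24, *Hapln1* by 1.06 and *Tnr* by 0.76, and *Bcan* was higher by 0.67. The groups did not overlap for any of them. Groups that do not overlap were found for 48.5% of all genes in this comparison.

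The tilt of the libraries moved with this comparison and with the members. All HT-Flx tilts (0.27 to 1.04) were above all WT-Flx tilts (-0.51 to -0.35). Over the 20 P120 libraries, which share the normalization, Pearson's r of the log2 value with the tilt was -0.96 for *Ptprz1*, -0.92 for *Tnr*, -0.85 for *Vcan*, -0.83 for *Hapln1*, 0.85 for *Bcan* and *Hapln4*, 0.82 for *Acan* and 0.64 for *Tnc*. As deviations from the 4 group means, r was -0.91 for *Ptprz1*, -0.85 for *Tnr*, -0.77 for *Hapln1* and -0.69 for *Vcan*. It was 0.69 for *Bcan*, 0.60 for *Hapln4*, 0.50 for *Acan*, 0.09 for *Tnc*, 0.06 for *Hapln3* and -0.03 for *Ncan*. Over the 18 libraries without the vehicle libraries numbered 2 the latter values, in the same order, were -0.91, -0.86, -0.78, -0.72, 0.70, 0.59, 0.50, 0.10, 0.06 and -0.03. These are descriptions over libraries whose groups differ in tilt.

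**Figure D4:**
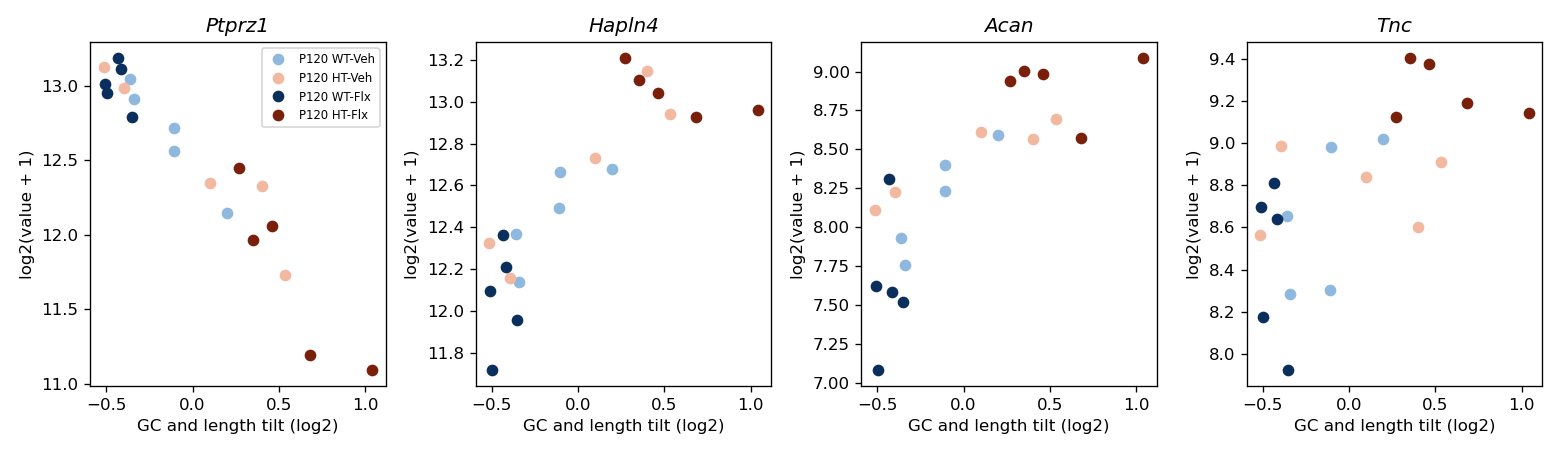
Log2(value + 1) of 4 genes (vertical axes) against the GC and length tilt of each of the 20 P120 libraries (horizontal axes, log2, positive where short, GC-rich genes are high). The WT-Flx libraries lie at -0.51 to -0.35 and the HT-Flx libraries at 0.27 to 1.04, and *Ptprz1* falls along the axis within groups as well as between them.

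With every library corrected for transcript GC and length, 5 members passed between HT-Flx and WT-Flx (3 higher and 2 lower), where 35.9% of genes did (20.2% higher and 15.6% lower). *Acan* was higher by 0.80 (adjusted p = 0.00483 in limma), *Tnc* by 0.54 (0.00939) and *Hapln4* by 0.34 (0.0229), and *Ptprz1* was lower by 0.59 and *Tnr* by 0.30 (log2 fold changes of -0.59 and -0.30, adjusted p = 0.00233 and 0.0264). *Vcan* (-0.32), *Hapln1* (0.014) and *Bcan* (-0.077) no longer passed. With the GC content and length of the median annotated transcript in place of the longest coding one, *Vcan* passed as well, at -0.64, where 37.8% of genes passed.

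**Figure D5:**
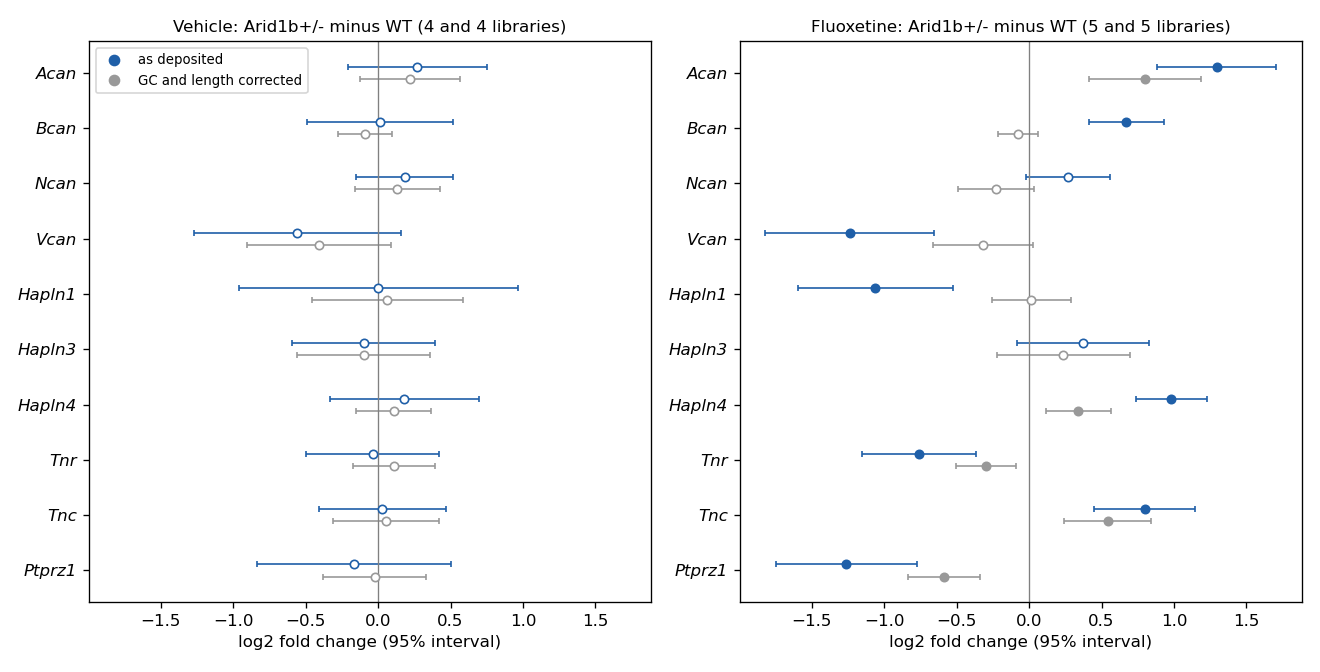
Log2 fold change, Arid1b+/- minus WT (horizontal axis, 95% interval), at P120 after vehicle (left, 4 and 4 libraries) and after early fluoxetine (right, 5 and 5 libraries), on deposited values (blue) and corrected for transcript GC and length (grey); filled points passed an adjusted p of 0.05. No gene passed with vehicle, and *Acan* stands at 1.29 and 0.80 with fluoxetine.

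Of the 10 cell type marker sums, 3 were apart between HT-Flx and WT-Flx, where groups did not overlap for 48.5% of single genes. The oligodendrocyte sum was 256913 to 286098 in HT-Flx and 182856 to 242705 in WT-Flx, and the precursor sum 14011 to 19338 and 11172 to 13037. Proliferating cell markers were at 57.8 to 80.6 and 116 to 173. The other 7 sums overlapped between the groups, again in the order HT-Flx and WT-Flx: parvalbumin interneuron (41647 to 60525 and 35999 to 50341), neuron (136869 to 164648 and 148653 to 162034), astrocyte (122702 to 157999 and 132943 to 159887), microglia (6083 to 9697 and 4832 to 6100), endothelial and pericyte (7215 to 8520 and 6275 to 7729), erythroid (8121 to 13300 and 5835 to 8321) and choroid plexus (25008 to 33305 and 23061 to 36176). The part of these shifts was not tested.

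Within each genotype, fluoxetine against vehicle gave no called member. Between HT-Flx and HT-Veh no gene of 17676 passed in limma (0.0%, with 4082 at an unadjusted p under 0.05). *Tnc* was the member whose groups did not overlap there, at 556 to 676 in HT-Flx and 377 to 507 in HT-Veh (log2 fold change 0.47, adjusted p = 0.215 in limma), as 1.62% of genes did. *Acan* stood at 0.47 (95% interval 0.14 to 0.81) and *Ptprz1* at -0.75 (-1.40 to -0.11). When all 30 libraries shared 1 estimate of the spread, *Acan*, *Tnc*, *Ptprz1* and *Vcan* passed in this comparison, along with 3009 higher and 2939 lower genes (33.1% of those tested). Without the HT-Veh library numbered 2 no gene passed, and *Tnc* stood at 0.48.

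Between WT-Flx and WT-Veh no gene of 17865 passed in limma (0.0%, with 4504 at an unadjusted p under 0.05). *Acan* stood at -0.56 (95% interval -1.03 to -0.094), *Hapln4* at -0.40 (-0.68 to -0.12) and *Bcan* at -0.28 (-0.45 to -0.11), with values that overlapped between the groups. Without the WT-Veh library numbered 1, *Bcan* and *Hapln4* passed (adjusted p = 0.0453 and 0.0426 in limma), where 7.84% of genes did, 276 higher and 1124 lower. Without the WT-Veh library numbered 2 no gene passed, and *Acan* stood at -0.51 (-1.02 to 0.0072), *Hapln4* at -0.39 and *Bcan* at -0.29.

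The difference between the 2 fluoxetine changes, HT minus WT, was tested over the 20 P120 libraries. *Acan* (1.03, SE 0.273, adjusted p = 0.0347 in limma), *Hapln4* (0.79, SE 0.229, 0.0347), *Tnc* (0.67, SE 0.243, 0.0477) and *Ptprz1* (-1.09, SE 0.362, 0.0378) passed, on the log2 scale, which is 4 of 10 members where 27.3% of 17796 genes passed (15.8% higher and 11.5% lower). Without the vehicle libraries numbered 2 no gene passed, although *Acan* still stood at 1.02 and *Ptprz1* at -1.10. After the GC and length correction no gene passed, and *Acan* stood at 0.60 and *Hapln4* at 0.23. Leaving out single libraries gave 0 to 8 members past the threshold. No member passed without HT-Flx library 1, WT-Flx library 2 or 3, HT-Veh library 4 or 5, or WT-Veh library 2, 3 or 4, each left out alone. Without HT-Veh library 1, *Bcan*, *Vcan*, *Hapln1* and *Tnr* passed as well, which is 8 members where 43.0% of genes passed (4017 higher and 3650 lower).

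Among the pathway genes, HT-Flx against WT-Flx gave 9 higher and 2 lower of 16 tested for net assembly and hyaluronan, 9 and 5 of 21 for chondroitin sulfate synthesis, 8 and 3 of 21 for proteases and inhibitors and 9 and 7 of 20 for receptors, where 33.1% of all genes were higher and 30.5% lower. Among the genes of these lists whose groups did not overlap, *Tnxb* (tenascin-X, 1.07), *Chpf* (1.04) and *Hspg2* (1.02) were higher in HT-Flx by the most, in log2 fold change. *Dsel* (-1.14), *Csgalnact2* (-1.07) and *Cntn1* (-0.98) were lower in HT-Flx by the most. After the correction these counts were 4 and 2, 4 and 5, 9 and 3, and 1 and 3, where 20.2% of all genes were higher and 15.6% lower. Before and after it, the share of genes passing in these lists lay on both sides of the share of all genes.

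Over the 20 P120 libraries, as deviations from group means, the genes most like *Acan* of 14411 compared were *Cbfa2t3* (Pearson's r 0.90), *Prag1* (0.88) and *Gnmt* (0.87). Those most like *Hapln4* were *Jup* (0.97), *Cadm3* (0.96) and *Kcnk12* (0.96). *Vcan* was most like *Vldlr* (0.92), *Bptf* (0.90) and *Zfp110* (0.89), and *Tnc* most like *Rnf182* (0.94), *Mreg* (0.92) and *Irx2* (0.91). These libraries share the tilt described above, and likeness is given as a description. Without the vehicle libraries numbered 2 the 3 genes most like *Acan* were others, *Itga7*, *Ifitm10* and *Itpr3* (each 0.90), with *Cbfa2t3*, *Prag1* and *Gnmt* at 0.88 to 0.90, while *Jup*, *Vldlr* and *Rnf182* still came first for *Hapln4*, *Vcan* and *Tnc*.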

How the data were processed

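Poly-A RNA of whole brain from 30 male mice (6 groups of 5) had been prepared with an unstranded TruSeq kit and sequenced as paired-end reads. The authors quantified reads with Salmon 1.1.0 on GRCm38 with GC bias correction, summed them to genes and normalized them with DESeq2 1.30.1 (R 4.1.1 per the labels). The deposited signal is normalized counts of all libraries together, not whole reads, so read depth is unknown and no counting interval is given; count models were not used. Symbols were matched for 99.9% of 19737 genes.

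Values were compared as log2(value + 1), which understates changes of low genes, with limma 3.58.1 in R 4.3.3 (intensity trend), over genes with a mean of at least 10 in the libraries compared and Benjamini-Hochberg adjustment over all of them at 0.05. There were 9 comparisons, 2 of them interaction terms. Exact two-sided permutation tests used 252 splits of 5 and 5 libraries. The correction for GC content and transcript length subtracted, in each library, the mean deviation in 10 by 10 bins of genes, using the longest coding transcript. The tilt is the mean deviation of 5193 genes above the median GC content and below the median length minus that of 5194 genes of the opposite kind. Code was tested on simulated data. Named pathway genes were the up to 3 largest in each direction per list in the WT age comparison, past the threshold, without overlap and with a mean of at least 50; elsewhere every passing gene up to 5, else the 3 largest in each direction. The members and lists were chosen with earlier results of these data known. Chst13 and Mmp3 were not in the table. A gene that the naming rule takes is not reported here by name; the counts of its list include it. Pseudocount, filter, scaling, spread, block, library and correction alternatives were tried. No column was left unmapped. P-values measure the spread between mice of 1 group. Vehicle and fluoxetine were given to the dams, and the sample labels do not say which mice shared a litter. The spread between litters was therefore not measured.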

Additional observations from a re-analysis of the deposited data

Results flagged for a closer look

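*Bcan* in the P10 WT library numbered 5 stood at 11529, and the next highest of the 5 at 10575; the gap was 0.78 of the group's range, above the critical ratio of 0.71. This was 1 of 60 sets of 5 libraries checked (10 genes in 6 groups), and chance flags about 1 in 20 such sets.

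The interaction term of fluoxetine by genotype, HT minus WT on the log2 scale, passed in limma for *Acan* (1.03), *Hapln4* (0.79), *Tnc* (0.67) and *Ptprz1* (-1.09), where 27.3% of 17796 genes passed. In the 20 fits that left out 1 library each, *Acan* and *Hapln4* passed in 12, *Ptprz1* in 9 and *Tnc* in 4. With libraries corrected for transcript GC and length the values were 0.60, 0.23, 0.42 and -0.55, and without the vehicle libraries numbered 2 they were 1.02, 0.80, 0.77 and -1.10; in neither setting did any gene of the table pass.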

How the results depend on the processing

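Of the members' log2 fold changes under all alternatives, 2026 kept direction and side of the threshold, 28 newly passed, 71 no longer passed and 97 turned direction. Alternatives with fluoxetine-treated adults, with the median transcript, with all 5 and 5 corrected, and with correction beside leaving out libraries numbered 2 were chosen after seeing the data, as was leaving out the latter for shares, sums, list counts, tilt and likeness. The cause of these changes was not tested. Depth is unknown, so its limits could not be set. With a minimum mean of 100, *Hapln3* gave no value in comparisons where its mean was lower.

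With the correction for GC content and transcript length, with or without the replicate block, *Bcan* turned to -0.13 (WT age), -0.14 (HT age), -0.011 (age by genotype), -0.092 (vehicle), -0.047 (HT fluoxetine), -0.077 (HT-Flx against WT-Flx) and -0.034 (fluoxetine by genotype), in log2 units. *Hapln3* turned to -0.064 and *Tnr* to 0.043 (age by genotype), *Tnr* to 0.11 (vehicle), *Ncan* to -0.15 and *Hapln1* to 0.15 (HT fluoxetine), *Ncan* to 0.13 and *Vcan* to -0.17 (WT fluoxetine), *Ncan* to -0.23 and *Hapln1* to 0.014 (HT-Flx against WT-Flx), and *Ncan* to -0.26 (fluoxetine by genotype). With the median transcript the values that turned were *Bcan* -0.20 (WT age, adjusted p = 0.00464 in limma), -0.19 (HT age) and -0.078 (vehicle), *Hapln3* -0.12 (age by genotype), *Tnr* 0.0015 (P10), *Ncan* -0.12 and *Hapln1* 0.0046 (HT fluoxetine), *Ncan* 0.12 and *Vcan* -0.090 (WT fluoxetine), *Ncan* -0.18 (HT-Flx against WT-Flx) and *Ncan* -0.23 (fluoxetine by genotype). Without the vehicle libraries numbered 2, *Hapln3* was -0.030 (age by genotype) and *Ncan* 0.016 (WT fluoxetine). With the correction as well, *Bcan* was -0.094 (WT age), -0.16 (HT age), -0.060 (age by genotype) and -0.021 (HT fluoxetine), *Hapln3* -0.089 and *Tnr* 0.14 (age by genotype), *Ncan* -0.20 and *Hapln1* 0.10 (HT fluoxetine), *Ncan* 0.16 and *Vcan* -0.22 (WT fluoxetine), and *Ncan* -0.36 and *Vcan* 0.090 (fluoxetine by genotype). With fluoxetine-treated adults the WT age values were *Acan* -0.21 and *Bcan* -0.19. In the vehicle comparison *Hapln1* was -0.0029 rescaled and -0.092 with all 5 and 5 libraries, and *Bcan* -0.040 and *Tnr* 0.0096 with those corrected.

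Counts also moved. Age by genotype gave 2 higher genes in limma without the trend. P10 gave 5 lower genes with the replicate block, 6 with block and correction, 1 with the median transcript, and 0 higher and 0 lower with all groups in 1 fit, where the vehicle comparison gave 1 lower. HT-Flx against HT-Veh gave 1 member higher and 2 lower (63 and 1292 genes) with the replicate block, 2 lower genes with block and correction, and 2 members higher and 2 lower (3009 and 2939 genes) with all groups in 1 fit. HT-Flx against WT-Flx gave 2 members lower (3604 genes higher and 2784 lower) with the correction, 1 (2938 and 2293) with the block as well, and 3745 and 2989 genes with the median transcript. Fluoxetine by genotype gave 0 members and 0 genes in either direction with either correction, with the block and correction, and without the vehicle libraries numbered 2 with or without correction, and 2 members lower and 3607 genes lower with all groups in 1 fit. Same-numbered libraries did not deviate together throughout, with correlations of -0.30 to 0.23 in the vehicle comparison and -0.16 to 0.053 in HT age. In WT age they were 0.017 to 0.045. In HT-Flx against HT-Veh they were -0.018 to 0.41, with a mean of 0.18 against -0.044 for libraries of other numbers. The numbers were not taken as pairs.

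Leaving out 1 library at a time gave 1 to 2 members higher in WT age, 2 to 4 genes higher and 1 to 4 lower at P10, 0 to 1 lower in the vehicle and HT fluoxetine comparisons, 0 to 276 higher and 0 to 1124 lower with 0 to 2 members lower in WT fluoxetine (the most without WT-Veh library 1, and 555 genes lower without WT-Veh library 5), and 0 to 4 members and 0 to 4017 genes higher with 0 to 4 members and 0 to 3650 genes lower in fluoxetine by genotype. Directions turned within these ranges: *Hapln3* -0.074 to 0.073, *Tnr* -0.19 to 0.021 and *Hapln1* -0.21 to 0.33 (age by genotype), *Tnr* -0.052 to 0.012 (P10), *Bcan* -0.18 to 0.19, *Tnr* -0.16 to 0.12, *Tnc* -0.12 to 0.12, *Ptprz1* -0.36 to 0.11 and *Hapln1* -0.37 to 0.39 (vehicle), and *Hapln3* -0.25 to 0.010, *Ncan* -0.095 to 0.024 and *Vcan* -0.00018 to 0.19 (WT fluoxetine).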
